A study of Mus musculus with 5 samples.

Results

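The Slc25a genes encode the mitochondrial carriers, membrane proteins found for the most part in the inner mitochondrial membrane, most of which exchange metabolites, nucleotides and cofactors between the cytosol and the matrix. All genes of the deposited table whose symbol begins with Slc25a and a number were taken, apart from Slc25a13 and Slc25a15, which gave 45 genes of 22287. They were compared between tumours of lnc-CTHCC-/- mice (KO, 3 libraries) and tumours of wild-type mice (WT, 2 libraries), where lnc-CTHCC names a long non-coding RNA. All 5 samples were liver tumours of the C57BL/6 strain after 5 months of DEN, a liver carcinogen, together with CCl4, a liver toxicant. The sources used here give neither the ages of the mice nor the design of the deleted allele, and do not say that each sample is a different mouse, so p-values may measure only technical spread. Genotypes are those of the labels, and the lnc-CTHCC transcript was not analysed here.

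Carriers share a fold built from repeated pairs of membrane helices and move their substrates mostly by exchange. In hepatocytes they link the urea cycle, gluconeogenesis, fatty acid oxidation, lipid synthesis and ATP export to the cytosol. They are encoded in the nucleus, and most reach the inner membrane through the TIM22 import route.

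Values are FPKM (fragments per kilobase, scaled by the library), so levels can be compared between genes. The libraries summed to between 526229 and 552619 FPKM, and their depth is unknown. The 6 hepatocyte markers Alb, Apoa1, Ttr, Hnf4a, Cps1 and Tat together were at 101016 to 101897 FPKM in KO and at 90588 and 118166 FPKM in WT libraries. Most of that sum was Alb, and 4 of the 6 had a lower mean in KO. Ttr alone did not overlap, at 2353 to 2604 FPKM in KO and at 4216 and 2955 FPKM in WT. The skeletal muscle markers Mb and Tnnt3 were listed at 0 in all libraries, and Acta1 and Ckm were at 0.02 FPKM or less. Of the brown fat markers, the uncoupling protein Ucp1 was listed at 0 in all libraries, and Elovl3 was at 0.02 to 0.43 FPKM. Cidea was at 0.54 to 1.76 FPKM in KO and at 1.24 and 0.03 FPKM in WT libraries. Across the series, 1 of 10132 genes tested by limma passed an adjusted p of 0.05, Onecut1, which is higher in KO. That count was 0 without KO 1, KO 2 or KO 3. With WT 1 or WT 2 left out, the call of Onecut1 cannot be judged, because 1 WT library has no spread of its own.

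Slc25a30 and Slc25a22 had the carriers' smallest p-values, and neither passed the test. The promoters of both are shown because these 2 carriers differed most between the genotypes. Each sequence runs 5′ to 3′ from 250 bases before to 50 bases after a RefSeq start (GRCm38.p6, the mouse assembly that the mm10 name also denotes). The Slc25a30 window lies at chr14:75786988-75787287 on the minus strand, and 4 of its 6 GENCODE vM21 transcripts start within 50 bases of that start. RefSeq lists 3 starts for Slc25a22, and the window at chr7:141434545-141434844 on the minus strand is the one with the most GENCODE starts nearby, 4 of 25. Capitals mark the CCAAT box and the GC box GGGCGG, each on either strand.
Slc25a30: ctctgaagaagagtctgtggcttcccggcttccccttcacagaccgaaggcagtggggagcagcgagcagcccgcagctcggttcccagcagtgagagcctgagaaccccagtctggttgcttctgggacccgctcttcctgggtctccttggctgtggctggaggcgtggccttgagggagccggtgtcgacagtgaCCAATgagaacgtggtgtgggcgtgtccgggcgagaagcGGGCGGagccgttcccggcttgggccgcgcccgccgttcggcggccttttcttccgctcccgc
Slc25a22: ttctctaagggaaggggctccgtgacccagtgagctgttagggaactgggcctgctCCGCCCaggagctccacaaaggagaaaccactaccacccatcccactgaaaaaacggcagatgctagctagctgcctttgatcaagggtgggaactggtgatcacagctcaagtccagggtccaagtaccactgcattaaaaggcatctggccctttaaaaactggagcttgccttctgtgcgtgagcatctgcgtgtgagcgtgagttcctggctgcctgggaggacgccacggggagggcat
The Slc25a30 window held 1 CCAAT and 1 GGGCGG, and the Slc25a22 window held 1 CCGCCC, the GC box read on the other strand. Of the other Slc25a22 windows, that at chr7:141435326-141435625 held 1 CCAAT and 3 CCGCCC, and that at chr7:141437825-141438124 held 1 GGGCGG. No window of either gene held TATAAA on either strand. Over all 32851 promoter windows of the same length, 37.4% held CCAAT, 35.7% GGGCGG and 13.6% TATAAA on either strand. Over the 43 windows of the 34 carriers matched by symbol, the shares were 48.8%, 83.7% and 4.65%. Windows of 1 gene can overlap, and a match is a run of letters and not a measured binding site.

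Slc25a30 (ENSMUSG00000022003, chromosome 14, 75760117 to 75787037, minus strand, GRCm38) encodes a carrier related to the uncoupling proteins and first described in kidney. It was at 30.15 FPKM in KO 1, 21.78 in KO 2 and 45.42 in KO 3, against 7.44 FPKM in WT 1 and 9.93 in WT 2. The genotypes did not overlap, and the lowest KO value was 2.19 times the highest WT value. The mean was 32.5 ± 11.99 FPKM in KO (SD, n = 3) and 8.69 ± 1.76 FPKM in WT tumours (SD, n = 2), a ratio of 3.74. In log2(FPKM + 1), a scale on which changes of low genes are understated, the difference was 1.74 (SE 0.288, 95% interval 1.08 to 2.39). It ranked 10th by p among 10132 genes but missed the threshold (limma adjusted p = 0.22). Among the 45 carriers Slc25a30 ranked 8th, 14th and 7th by level in KO 1, KO 2 and KO 3, and 16th and 17th in WT 1 and WT 2. The call was also missed with any 1 library left out, where the adjusted p ran between 0.0994 and 0.894 and the log2 difference between 1.47 and 1.99.

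Slc25a22 (ENSMUSG00000019082, chromosome 7, 141429744 to 141437892, minus strand, GRCm38) encodes the mitochondrial glutamate carrier, which brings glutamate into the matrix with a proton. It was at 25.57 FPKM in KO 1, 26.69 in KO 2 and 21.14 in KO 3, against 42.43 FPKM in WT 1 and 48.13 in WT 2. Every KO library lay below both WT libraries, the highest KO value being 0.629 times the lowest WT value. The mean was 24.5 ± 2.93 FPKM in KO (SD, n = 3) and 45.3 ± 4.03 FPKM in WT tumours (SD, n = 2), a ratio of 0.54. The log2 difference was -0.87 (SE 0.177, 95% interval -1.27 to -0.46), 13th by p among all genes, and it missed the threshold too (limma adjusted p = 0.705). In rank among the carriers Slc25a22 stood 11th, 10th and 13th in the KO libraries, and 8th and 7th in the WT libraries. With any 1 library left out, the log2 difference ran between -0.95 and -0.77 and the adjusted p between 0.169 and 0.99998. Neither gene shares annotated exon bases with another gene of GENCODE vM21.

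**Figure D1:**
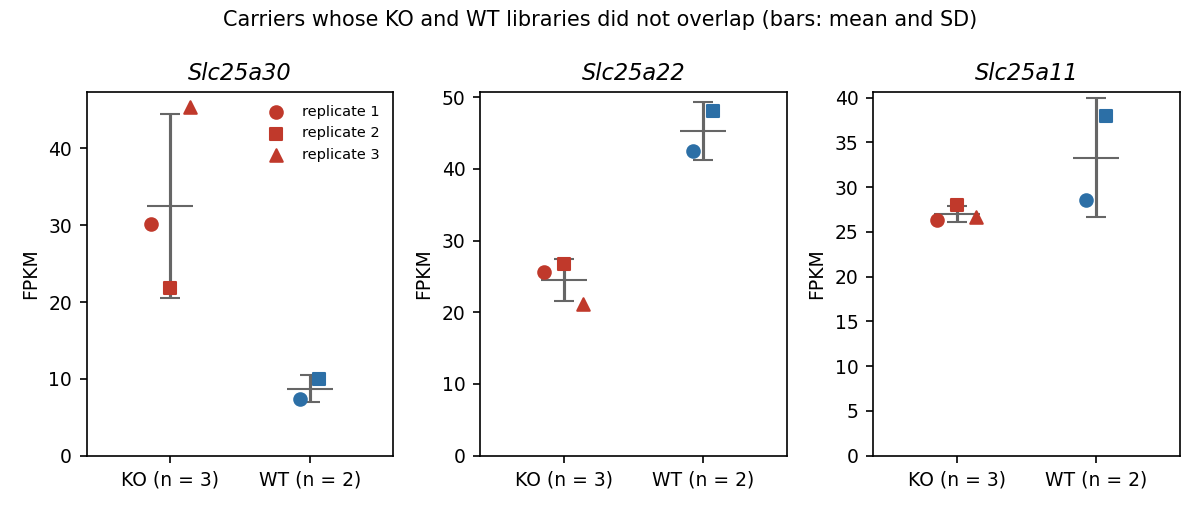
FPKM of Slc25a30, Slc25a22 and Slc25a11 in each library of the KO (left, 3 libraries) and WT (right, 2 libraries) tumours, with the marker shape giving the replicate number and bars the mean and SD. Slc25a30 lies at 21.78 to 45.42 in KO and at 7.44 and 9.93 in WT, Slc25a22 at 21.14 to 26.69 in KO and at 42.43 and 48.13 in WT, and Slc25a11 at 26.29 to 27.96 in KO and at 28.59 and 38.00 in WT.

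In the authors' deposited table, the false discovery rate is below 0.05 for 36 of 22287 genes (0.162%), among them 2 of the 45 carriers, 1 higher and 1 lower in KO. Slc25a30 has a log2 fold change of 1.90 and a rate of 1.2e-05 in the authors' deposited table. Slc25a22 has a log2 fold change of -0.89 and a rate of 0.0143 in the authors' deposited table. These rates come from the same 5 libraries and are no independent check.

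Summed markers of several other cell types did not overlap between the genotypes, though single markers in these sums did. The summed levels of 5 B and plasma cell markers (Cd79a, Jchain, Igha, Igkc, Mzb1) were 37.6 to 131 FPKM in KO and 173 and 491 FPKM in WT libraries, with 5 of 5 lower in KO by mean. The 4 T and NK cell markers (Cd3e, Cd3d, Cd2, Nkg7) summed to 0.9 to 1.12 FPKM in KO and to 2.7 and 1.74 FPKM in WT, and the 5 proliferation markers to 7.23 to 8.51 FPKM in KO and to 10.2 and 15.2 FPKM in WT. All 4 and all 5 of these had a lower mean in KO. Of the T and NK cell markers, Nkg7 alone did not overlap (0.44 to 0.52 FPKM in KO, 1.28 and 0.97 FPKM in WT). Cd3e, Cd3d and Cd2 overlapped, at 0.57 FPKM or less in every library. Mki67 and Top2a, counted among the proliferation markers, also overlapped, and Birc5, Ube2c and Ccnb1 did not. Of the B and plasma cell markers, Cd79a alone overlapped (0.41 to 1.21 FPKM in KO, 1.32 and 0.59 FPKM in WT). The 5 endothelial markers summed to 38.4 to 56.6 FPKM in KO and to 35.3 and 37.7 FPKM in WT, with 0 of 5 lower in KO. Of these, Pecam1, Cdh5 and Stab2 overlapped. Lyve1 (6.58 to 18.08 FPKM in KO, 5.06 and 5.08 FPKM in WT) did not, nor, narrowly, did Kdr (5.88 to 6.48 FPKM against 5.58 and 5.86 FPKM). Summed markers of macrophages, cholangiocytes and erythroid cells overlapped between the genotypes (24.1 to 49, 154 to 348 and 476 to 773 FPKM in KO, against 29.1 to 39.4, 150 to 423 and 362 to 733 FPKM in WT). Summed markers of stellate cells and fibroblasts also overlapped, at 53 to 82.1 FPKM in KO and 45.7 and 57.4 FPKM in WT. Their part in the differences of Slc25a30 and Slc25a22 was not tested. In bulk tissue, fewer cells of a type and less RNA per cell cannot be told apart.

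The carriers differed widely in level. By mean over the 5 libraries, 5 were at 100 FPKM or more, 10 between 10 and 100, 17 between 1 and 10, 10 below 1 and 3 at 0. Genes with a mean of at least 1 FPKM were tested, which kept 32 of the 45 carriers. The summed level of all 45 was 1046, 1304 and 1136 FPKM in KO 1, KO 2 and KO 3, and 1087 and 1353 FPKM in WT 1 and WT 2. These sums took 0.199% to 0.242% of the library in KO and 0.197% and 0.255% in WT, so the genotypes overlapped. The 6 most abundant carriers made up 70.9% to 76.1% of the family sum in KO and 74.8% and 72.0% in WT.

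Those 6 were Slc25a47, Slc25a5, Slc25a39, Slc25a1, Slc25a3 and Slc25a10, and their values overlapped between the genotypes. Slc25a47, a carrier enriched in liver, was at 140.27, 257.94 and 188.52 FPKM in KO and at 187.03 and 260.93 FPKM in WT. Slc25a5, an ADP/ATP carrier, was at 180.50, 199.01 and 179.01 FPKM in KO and at 172.34 and 218.01 FPKM in WT. Slc25a39, needed for glutathione import into mitochondria, was at 163.85, 189.49 and 168.85 FPKM in KO and at 158.72 and 176.02 FPKM in WT. In each of these the KO range touched or crossed the WT range, and the log2 differences were -0.22 (95% interval -0.82 to 0.38), -0.06 (-0.45 to 0.33) and 0.06 (-0.31 to 0.42). Reads of Slc25a5 could have been shared with its processed pseudogene Slc25a5-ps, which makes its values uncertain.

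Slc25a1, the citrate carrier that supplies acetyl units for lipid synthesis, was at 116.42, 175.47 and 110.22 FPKM in KO and at 142.43 and 136.83 FPKM in WT. Slc25a3, the phosphate carrier, was at 113.95, 118.70 and 108.14 FPKM in KO and at 103.92 and 130.30 FPKM in WT. Slc25a10, the dicarboxylate carrier, was at 37.77, 52.27 and 50.46 FPKM in KO and at 48.52 and 51.92 FPKM in WT. KO 2 held the highest KO value of each of the 3, and their log2 differences of -0.09, -0.04 and -0.11 were smaller than their SEs of 0.219, 0.169 and 0.19.

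**Figure D2:**
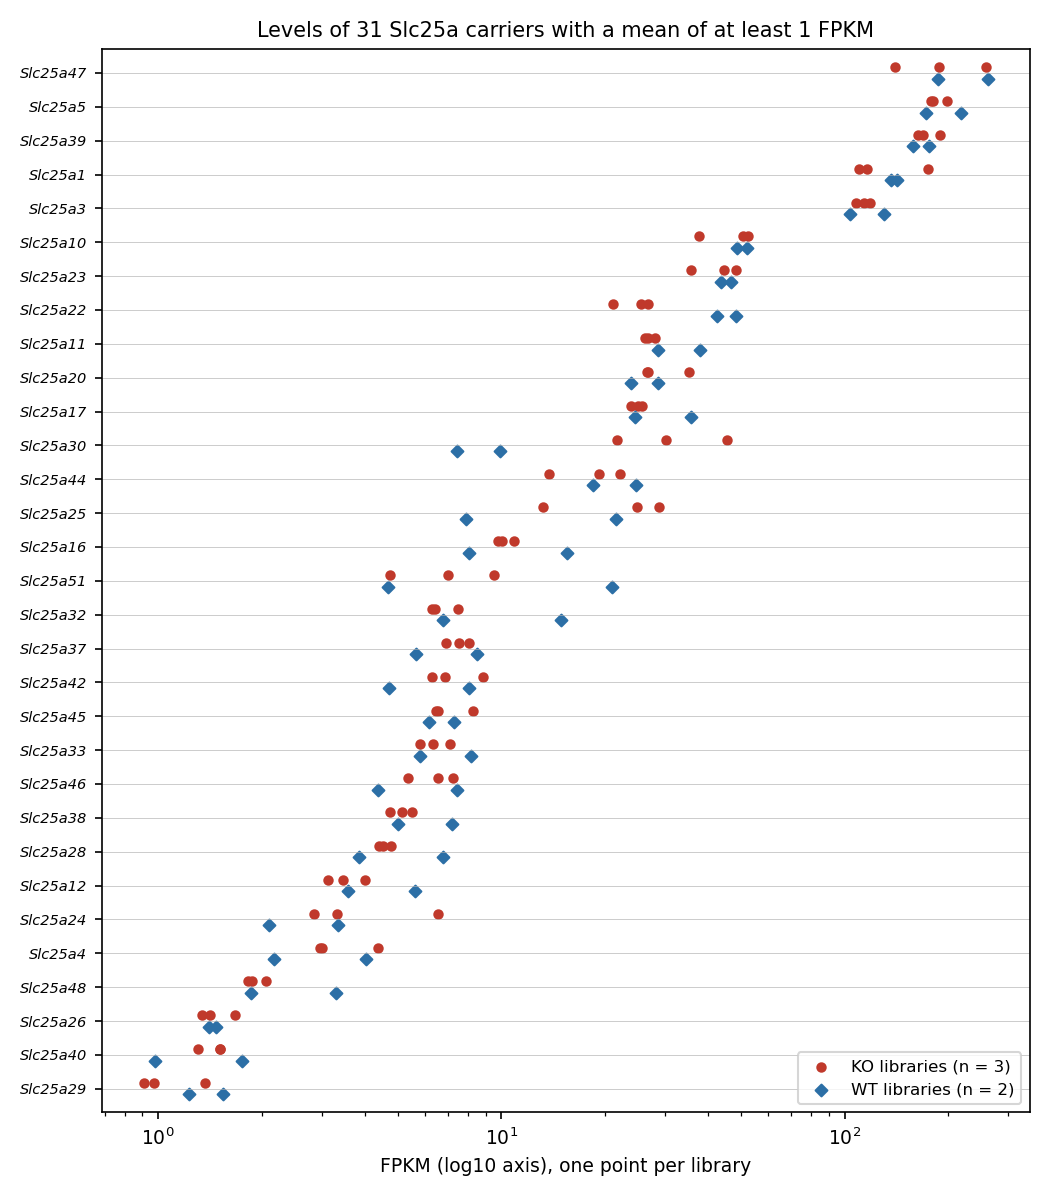
FPKM on a log10 axis of 31 of the 32 carriers with a mean of at least 1 FPKM, ordered by mean, with 1 point per library for KO (circles, upper) and WT (diamonds, lower). The points of Slc25a30, at 21.78 to 45.42 in KO and 7.44 and 9.93 in WT, and of Slc25a22, at 21.14 to 26.69 in KO and 42.43 and 48.13 in WT, are those that stand farthest apart, and in most other carriers the WT libraries span the KO values or overlap them.

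Of the 32 carriers tested, 0 passed the threshold by limma, where 0.00987% of all genes tested did. At an unadjusted p under 0.05 there were 2 (Slc25a30 higher, Slc25a22 lower), where 3.23% of all genes tested reached it. The KO and WT values did not overlap in 3 carriers, or 9.38%, against 15.1% of all genes tested: 1 above, Slc25a30, where 9.78% of all genes tested lay above, and 2 below, Slc25a22 and Slc25a11, where 5.29% lay below. By mean, 13 were higher and 19 lower in KO, with a median log2 difference of -0.09, beside 6220 higher, 3912 lower and a median of 0.05 over all 10132 genes tested. The median of the carriers was 0.079 without WT 2, with 21 higher and 11 lower, where that of all genes was 0.16. Without WT 1 the carriers' median was -0.18, with 7 higher and 25 lower, where that of all genes was -0.066. The log2 difference was within 0.5 of 0 in 27 of the 32, or 84.4%, and in 95.8% of all genes tested.

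The WT libraries themselves differed in the carriers. In WT 2, 28 of the 32 had a higher value than in WT 1, with a median log2 gap of 0.40, beside 7326 of 10132 genes and a median gap of 0.23 over all genes tested. The gap between WT 2 and WT 1 was larger than the difference between KO and WT in 26 of the 32 carriers and in 7550 of the 10132 genes. Among the other 6 carriers were Slc25a1, Slc25a10, Slc25a22, Slc25a29 and Slc25a30. Slc25a51, the NAD carrier, had the widest gap, at 6.99, 4.73 and 9.49 FPKM in KO, against 20.97 FPKM in WT 2 and 4.68 FPKM in WT 1. The share of mitochondrially encoded transcripts in the summed FPKM was 10.1%, 10.1% and 11.3% in KO and 11.5% and 13.2% in WT libraries, and their part in the carrier values was not tested.

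**Figure D3:**
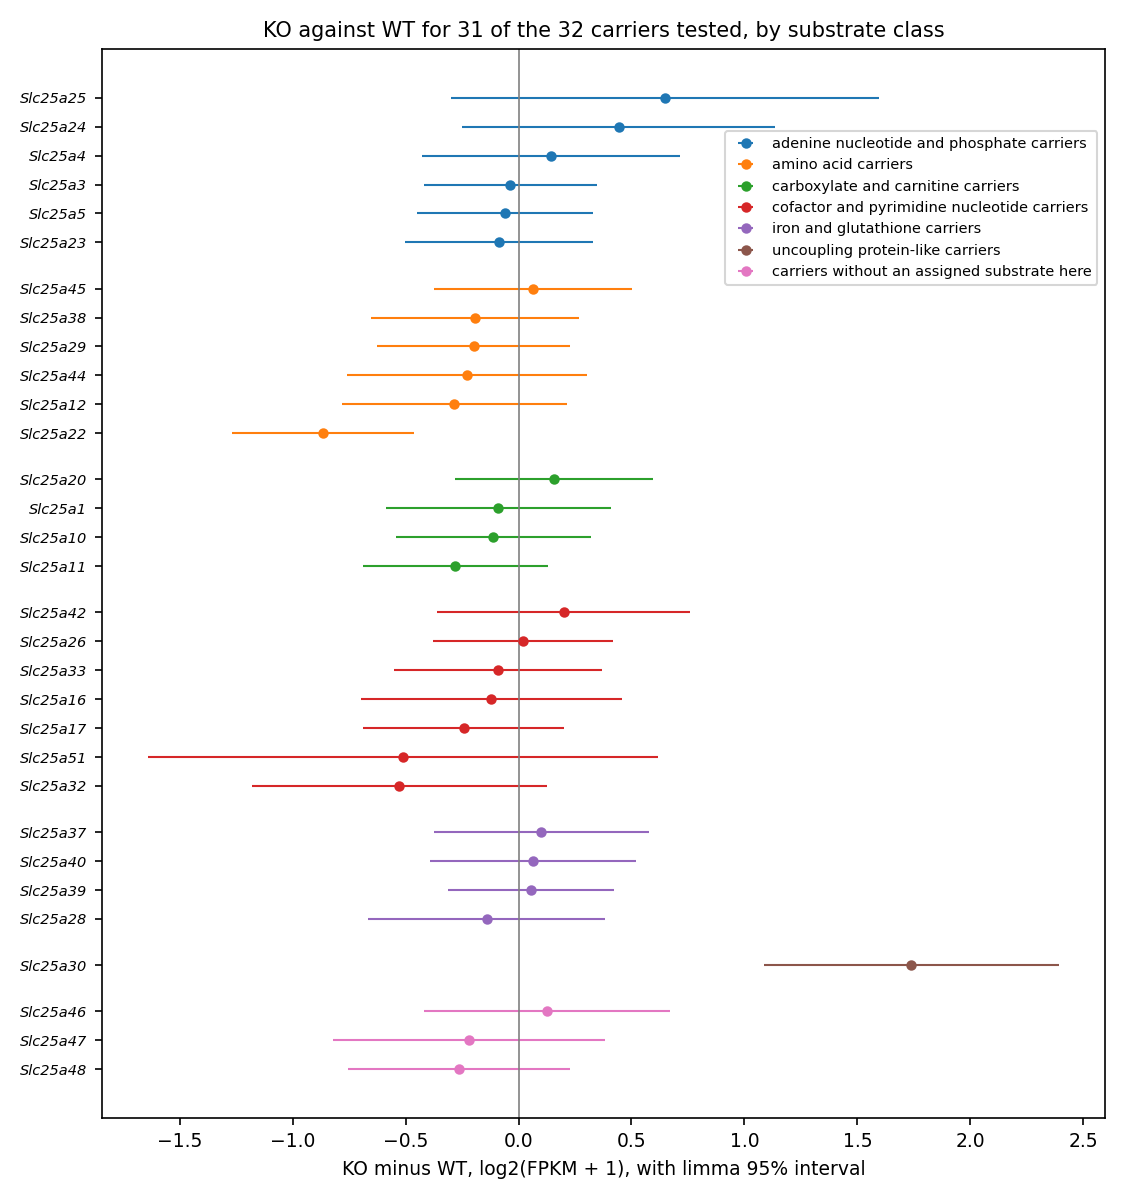
Difference of KO minus WT in log2(FPKM + 1) for 31 of the 32 carriers tested, coloured by substrate class, with the 95% interval from limma. Of these 31, only the unadjusted intervals of Slc25a30 (1.08 to 2.39) and Slc25a22 (-1.27 to -0.46) lie wholly to 1 side of 0.

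Among the 8 carriers of adenine nucleotides and phosphate, 6 were tested, 0 passed, and the median log2 difference was 0.05. Slc25a25 and Slc25a24, calcium-regulated carriers that exchange ATP-Mg for phosphate, had the widest differences of the class. Slc25a25 was at 13.24, 28.84 and 24.89 FPKM in KO and at 7.91 and 21.61 FPKM in WT, a log2 difference of 0.65 (95% interval -0.30 to 1.59). Slc25a24 was at 6.52, 2.84 and 3.33 FPKM in KO and at 2.11 and 3.35 FPKM in WT, so KO 1 alone lay above both WT libraries. Slc25a23, of the same function, was at 35.64 to 48.39 FPKM in KO and at 43.68 and 46.78 FPKM in WT. Slc25a4, the ADP/ATP carrier of heart and muscle, averaged 3.45 ± 0.803 FPKM in KO (SD, n = 3) and 3.10 ± 1.31 FPKM in WT tumours (SD, n = 2). Slc25a31, the testis form, was at 0.02 FPKM in each KO library and listed at 0 in WT, and Slc25a41 was listed at 0 throughout.

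Among the 8 amino acid carriers, 6 were tested, 0 passed, 1 was higher and 5 were lower by mean, and the median log2 difference was -0.21. Slc25a18, the other glutamate carrier and the paralog of Slc25a22, was listed at 0 in all 5 libraries. Slc25a12, an aspartate-glutamate carrier of the malate-aspartate shuttle, was at 3.45, 3.12 and 4 FPKM in KO and at 3.57 and 5.59 FPKM in WT. Slc25a44, a carrier of branched-chain amino acids, was at 19.30, 22.17 and 13.73 FPKM in KO and at 18.48 and 24.66 FPKM in WT. Both overlapped between the genotypes, with log2 differences of -0.28 (95% interval -0.78 to 0.21) and -0.23 (-0.76 to 0.30). Slc25a38, the glycine carrier needed for heme synthesis, had a log2 difference of -0.19, Slc25a29, which carries basic amino acids, of -0.20, and Slc25a45 of 0.06. Slc25a2, an ornithine carrier, was at 0.05 FPKM in KO 1 and listed at 0 elsewhere.

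Of the 7 carboxylate and carnitine carriers, 4 were tested and 0 passed. Slc25a11, the oxoglutarate-malate carrier of the malate-aspartate shuttle, was at 26.29, 27.96 and 26.69 FPKM in KO and at 28.59 and 38.00 FPKM in WT. Every KO value lay below both WT values, the nearest pair being 0.978 of each other, and the log2 difference was -0.28 (SE 0.18, limma adjusted p = 0.999). Of its exonic bases, 189 (8.92%) are shared with Rnf167 on the opposite strand, and reads from the 2 genes cannot be told apart there unless strand was used. That limit holds for other carriers too, among them Slc25a33 (14.9% shared), Slc25a46 (7.06%), Slc25a10 (6.60%) and Slc25a25 (4.82%). The log2 difference of Slc25a11 was -0.48 without WT 1 (limma adjusted p = 0.403) and -0.08 without WT 2. Slc25a20, the carnitine-acylcarnitine carrier of fatty acid oxidation, was at 26.80, 26.48 and 35.25 FPKM in KO and at 23.90 and 28.56 FPKM in WT. Slc25a21, Slc25a34 and Slc25a35 had means under 1 FPKM and were not tested.

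Of the 9 carriers of cofactors and pyrimidine nucleotides, 8 were tested, 0 passed, and the median log2 difference was -0.11. Slc25a32, a carrier of folate and FAD, was at 7.49, 6.42 and 6.29 FPKM in KO and at 6.78 and 14.91 FPKM in WT, so that WT 2 alone was high (log2 difference -0.53, 95% interval -1.18 to 0.12). The NAD carrier Slc25a51 had a log2 difference of -0.51 (95% interval -1.64 to 0.62), and WT 2 alone was high there too. Slc25a17, a peroxisomal carrier of CoA, FAD and NAD, was at 23.86, 25.07 and 25.67 FPKM in KO and at 24.52 and 35.70 FPKM in WT. Slc25a42 and Slc25a16, both linked to CoA, had log2 differences of 0.20 and -0.12. Slc25a26, the S-adenosylmethionine carrier, and Slc25a33, a pyrimidine nucleotide carrier, had log2 differences of 0.02 and -0.09. Slc25a36, the other pyrimidine nucleotide carrier, averaged 0.697 FPKM in KO and 0.54 FPKM in WT and was not tested.

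The 4 carriers of iron and glutathione were all tested, 0 passed, and their log2 differences ran between -0.14 and 0.10. Slc25a37, mitoferrin of erythroid cells, was at 7.53, 6.90 and 8.07 FPKM in KO and at 5.62 and 8.47 FPKM in WT. Slc25a28, the more widely expressed mitoferrin, was at 4.41, 4.76 and 4.53 FPKM in KO and at 3.84 and 6.77 FPKM in WT. For both, the WT libraries lay on either side of all KO values. Slc25a40, the paralog of Slc25a39, averaged 1.44 ± 0.115 FPKM in KO (SD, n = 3) and 1.37 ± 0.552 FPKM in WT tumours (SD, n = 2).

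Slc25a30 was the 1 uncoupling protein-like carrier of 3 that was tested. Its relative Slc25a14 was at 1.06, 0.70 and 0.66 FPKM in KO and at 0.73 and 0.90 FPKM in WT, with KO values on both sides of the WT values. Slc25a27, known from brain, was at 0.03 to 0.08 FPKM in all libraries. The uncoupling proteins proper belong to the same family under other symbols: Ucp1 and Ucp3 were listed at 0 throughout, and Ucp2 was at 42.99, 43.87 and 25.37 FPKM in KO and at 32.30 and 26.69 FPKM in WT. Ucp2 had a log2 difference of 0.30 (95% interval -0.27 to 0.87), and KO 3 lay below both WT libraries.

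Among the 6 carriers without an assigned substrate here, 3 were tested and 0 passed. Besides Slc25a47, these were Slc25a46, which lies in the outer membrane and bears on mitochondrial shape, and Slc25a48, with log2 differences of 0.13 and -0.26. Slc25a43 was at 0.19, 0.32 and 0.13 FPKM in KO and at 0.08 and 0.06 FPKM in WT, too low to be tested, and Slc25a53 was at 0.10 FPKM or less. Slc25a54 was listed at 0 in all libraries.

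Genes that work with the carriers were compared through 9 lists, of which 70 of 75 members were tested. By limma 0 passed, 1 had an unadjusted p under 0.05, 27 were higher and 43 lower by mean, and the median log2 difference was -0.05. Over all genes tested, 3.23% had an unadjusted p under 0.05, and 6220 were higher and 3912 lower. The KO and WT values did not overlap in 6 of the 70 partner genes, or 8.57%, against 15.1% of all genes tested. The gene with an unadjusted p under 0.05 was Alas1, the first enzyme of heme synthesis, at 205, 270 and 246 FPKM in KO and at 152 and 170 FPKM in WT. All KO values of Alas1 lay above both WT values (log2 difference 0.57, limma adjusted p = 0.999).

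Of the 9 glutamate and glutamine enzymes, 0 passed, 4 were higher and 5 lower by mean, and the median log2 difference was -0.06, beside the -0.87 of Slc25a22. Gpt2, the mitochondrial alanine aminotransferase, was at 121, 133 and 100.02 FPKM in KO and at 85.0 and 114 FPKM in WT. Of the 9 enzymes of the malate-aspartate shuttle and citrate export, 0 passed and 7 were lower by mean, with a median of -0.19. Got1, the cytosolic aspartate aminotransferase, was at 35.5, 52.3 and 46.9 FPKM in KO and at 45.7 and 106 FPKM in WT, and Acly, which splits citrate in the cytosol, at 88.6, 119 and 93.0 FPKM in KO and at 80 and 235 FPKM in WT. In both, WT 2 was high and WT 1 lay within or below the KO range.

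The 10 genes of the carrier import route had a median log2 difference of 0.01, and 0 passed. Tomm22, an import receptor of the outer membrane, was at 25.8, 28.9 and 25.6 FPKM in KO and at 35.2 and 29.3 FPKM in WT, without overlap, and Tomm70a, the receptor for carrier precursors, had a log2 difference of 0.19. Among 13 mitochondrial transport proteins outside the family 0 passed (median -0.03). Vdac2, a channel of the outer membrane, averaged 40.1 ± 1.22 FPKM in KO (SD, n = 3) and 45.6 ± 2.49 FPKM in WT tumours (SD, n = 2), and Letm1, a cation exchanger of the inner membrane, had a log2 difference of -0.29. Of the 3 tested family members under other symbols 0 passed, and Mtch2, an outer membrane insertase, had a log2 difference of -0.09.

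None of the 4 carnitine acyltransferases passed by limma (0 with an unadjusted p under 0.05, median -0.06), with Cpt1a at 0.21 and Crot at -0.32 in log2 difference. Of the 6 tested genes of mitochondrial folate and glycine metabolism 0 passed (median -0.20). Amt, a part of the glycine cleavage system, was at 4.07, 4.05 and 4.34 FPKM in KO and at 5.56 and 5.35 FPKM in WT, and Mthfd2l, a folate dehydrogenase, at 1.70, 1.62 and 2.33 FPKM in KO and at 2.35 and 2.95 FPKM in WT, both without overlap. Of the 9 genes of heme and iron-sulfur cluster synthesis, Alas1 included, the median was -0.04, and Ppox, a later enzyme of heme synthesis, had a log2 difference of -0.16. The 7 tested regulators of mitochondrial biogenesis had a median of -0.07, and 0 passed. Ppargc1a, a coactivator of mitochondrial genes, was at 0.93, 0.83 and 0.88 FPKM in KO and at 0.71 and 1.90 FPKM in WT, and Gabpa, a transcription factor of respiratory genes, had a log2 difference of 0.26.

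**Figure D4:**
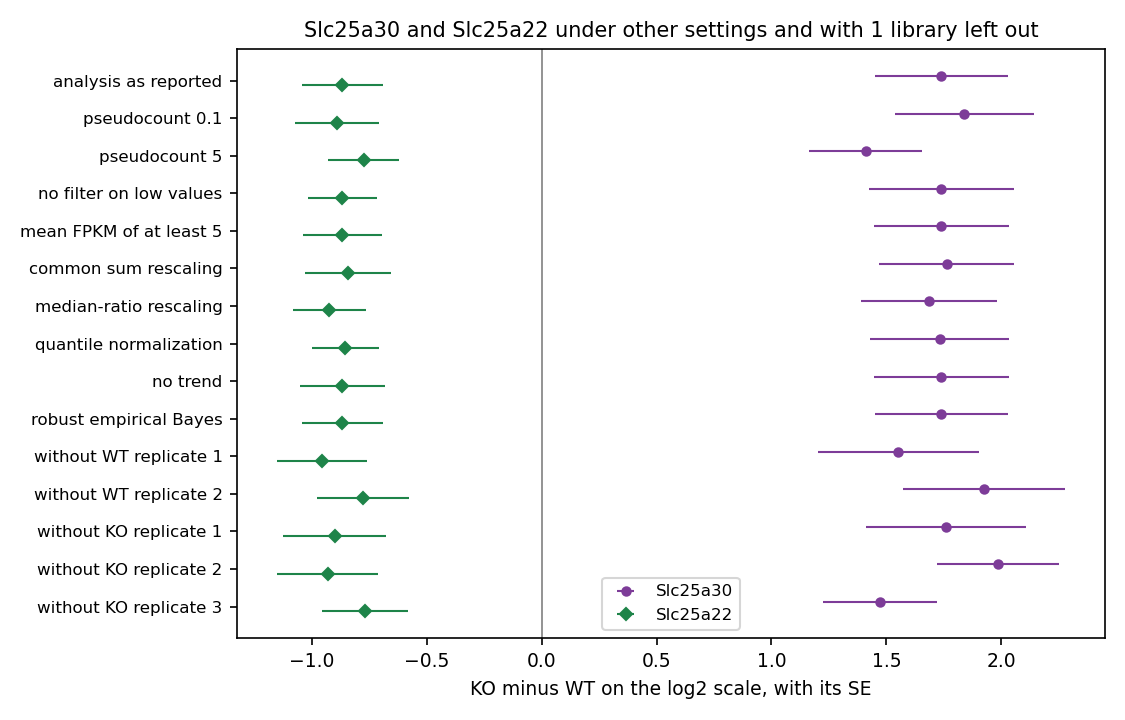
Log2 difference of KO minus WT with its SE for Slc25a30 (circles) and Slc25a22 (diamonds) in the analysis as reported, under other pseudocounts, filters, scalings and variance models, and with each library left out. Slc25a30 ran between 1.41 and 1.99 and Slc25a22 between -0.95 and -0.77.

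Slc25a30 stayed above 0 and Slc25a22 below 0 under every pseudocount, filter, scaling and variance model tried and with each library left out. Filters and variance models leave a log2 difference as it is. Values without overlap keep their sign under any pseudocount and with any library left out, so this constancy is no further support. The log2 difference of Slc25a30 was lowest, at 1.41, with a pseudocount of 5, and highest, at 1.99, without KO 2. That of Slc25a22 was nearest to 0, at -0.77, without KO 3, and farthest from it, at -0.95, without WT 1.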

How the data were processed

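RNA sequencing libraries of 3 KO and 2 WT liver tumours were analysed from 1 deposited table. Per the labels' protocols, total RNA was extracted with Trizol. Tools named in the submitters' processing notes, with no role or order, are HISAT2, StringTie, bcl2fastq 2.0, limma and DESeq2, and the build is mm10. Their annotation and strand setting are not stated there. Per the file headers, the authors made the FPKM of each library, the mean FPKM per genotype, and the deposited log2 fold change, p-value and false discovery rate. FPKM carries no library totals, so depth is unknown and no count model was used.

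Values were taken as log2(FPKM + 1), and genes with a mean of at least 1 FPKM over the 5 libraries were tested by limma 3.58.1 in R 4.3.3 (empirical Bayes with trend, two-sided, 3 residual degrees of freedom), adjusted by Benjamini-Hochberg over 10132 genes at 0.05. The script was tested on simulated data. Exact permutation of 3 against 2 libraries reaches no p below 0.1 and was not used. Groups came from sample titles. Coordinates are 1-based from GENCODE vM21 (GRCm38, the assembly of mm10), in which 22253 of 22287 identifiers were found.

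The carriers and gene lists were chosen with earlier results of these data known. Named carriers were Slc25a30, Slc25a22, their paralogs, those without overlap between genotypes and the 6 most abundant; up to 2 genes per partner list were named by the smallest p. Other carriers are given by their values to account for the family, and 1 carrier and 1 partner gene are counted but not reported here by name. Alternatives were pseudocounts of 0.1 and 5, no filter, a mean of at least 5 FPKM, 3 rescalings, robust empirical Bayes, no trend, a replicate block and each library left out. Figures used matplotlib 3.10.9 in Python 3.11.15.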

Additional observations from a re-analysis of the deposited data

How the results depend on the processing

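With 2 and 3 libraries and unknown depth, small differences of single carriers could not be resolved. Genes called over the series numbered 1, against 0 with a pseudocount of 5, no filter, a mean FPKM of at least 5, common sum or median-ratio rescaling or quantile normalization, 3 with robust empirical Bayes, and 0 to 17 with 1 library left out. Where 1 WT library was left out, the other was assumed to vary like the KO libraries. Carriers called numbered 0 under all alternatives but the replicate block, and their median log2 difference ran between -0.18 and 0.079 with 1 library left out, turning sign without WT 2. With the replicate number as a block, in which KO 3 has no partner and gives no information, 62 genes were called (19 higher, 43 lower), among them 1 carrier, Slc25a30 (log2 difference 1.47, limma adjusted p = 0.000436). Slc25a22 then had -0.77 (adjusted p = 0.499), and Slc25a1 turned to 0.034. This block fit leaves fewer residual degrees of freedom than the 3 of the reported fit. Its p-values rest almost wholly on the variance pooled over genes, so they do not measure the spread between libraries of a single gene. The labels do not say that the numbers pair the samples. Deviations from the group means correlated across genes at 0.0884 for replicate 1 and -0.241 for replicate 2. These values cannot decide whether samples are paired, because the deviations of 2 WT libraries mirror each other. Over 9 named carriers and 15 alternatives, 125 of 135 log2 differences kept their direction and side of the threshold. None of the 9 that turned sign passed in either case. The alternative filters and variance models leave each log2 difference as it is, so they could not turn a sign, and their values are among the 125. Slc25a39 turned to -0.0045 with median-ratio rescaling. With 1 library left out, Slc25a1 ran between -0.30 and 0.034, Slc25a10 between -0.20 and 0.032, Slc25a3 between -0.20 and 0.13, Slc25a39 between -0.019 and 0.13, Slc25a47 between -0.46 and 0.020, Slc25a5 between -0.23 and 0.11, and Slc25a11, which kept its sign, between -0.48 and -0.08; the cause was not tested.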
